A study of Mus musculus with 10 samples.

Results

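The genotype difference in the IFN-β response is the difference between 2 responses: the change from untreated to interferon-β (IFN-β) in Slfn2 KO-labelled fibroblasts minus the same change in Slfn2 WT-labelled fibroblasts. It was taken over all 10 of the series' 10 libraries, on log2 of the deposited normalised read count plus 1, with the replicate number as a block, and it was computed for 12313 of 23337 listed genes that passed a filter on low counts. A value of 1 means that a gene's fold change was 2 times as large in KO-labelled cells. By its construction it equals the genotype difference after IFN-β minus the genotype difference before it, so each gene is described below by its untreated (basal) level, its level after IFN-β and the size of its response.

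The cells were immortalised mouse embryonic fibroblasts, connective-tissue cells grown from embryos. There were 3 WT-labelled untreated libraries, 3 WT-labelled libraries treated with 5000 IU/ml of mouse IFN-β for 6 h, 2 KO-labelled untreated libraries and 2 KO-labelled libraries given the same treatment. The labels describe replicate platings of WT and KO cells and name no independent lines. They do not say what a replicate number marks. The p-values measure the spread between these libraries that is left after the replicate-number block. A difference between the labelled genotypes cannot be told apart from any other difference between the cultures. The part of Slfn2 that was removed is not given in the sources used here. Reads over the whole gene therefore check nothing, and "WT-labelled" and "KO-labelled" are used throughout.

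The libraries held 13565815 to 16329729 reads and 13658 to 14311 genes with at least 1 read. Summed levels of 12 fibroblast markers ran from 321600 to 493100 normalised reads in KO-labelled and from 221900 to 325300 in WT-labelled libraries, while 5 of 9 macrophage markers and 6 of 6 lymphocyte markers had 3 or fewer reads in every library. The macrophage list summed to 151 to 217 normalised reads in KO-labelled and 269 to 420 in WT-labelled libraries, and 5 neural markers to 1650 to 1889 and 2476 to 4332. Of 5 muscle markers, 3 had 3 or fewer reads in every library. The list summed to 1916 and 33450 in the 2 untreated KO-labelled libraries and to 4690 to 27970 in untreated WT-labelled ones. The part of these differences in the results was not tested. Replicate number 3 exists in WT-labelled cells only.

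Type I interferon binds the receptor Ifnar1/Ifnar2, whose kinases Jak1 and Tyk2 phosphorylate transcription factors of the STAT family, Stat2 among them. A complex that holds Stat2 and Irf9 binds interferon-stimulated response elements (ISREs) in the promoters of antiviral genes, and some promoters carry another element, the gamma-activated site (GAS). Many of these genes are transcribed at a low basal level before interferon is added, so a response depends on where a gene starts and on the level it reaches. The transcription factor NF-kB acts at other promoters, including those of inflammatory cytokines, and some genes such as Cxcl10 carry sites for both.

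The promoters of 5 genes, picked by hand as examples of these elements, are shown first. A link between the elements and the genotype difference in the response was not tested. The sequences are from RefSeq on GRCm38.p6, read 5′ to 3′ on the strand of the gene, with capitals marking matches to GAAANNGAA (ISRE) or GGGANNTTC (NF-kB) on either strand in the 250 bases before the annotated start. The reverse complement of the ISRE pattern reads TTCNNTTTC. Adjacent ISRE matches overlap in Ifit1, Gbp3 and Socs1.
Ifit1, chr19:34640768-34640825, plus strand: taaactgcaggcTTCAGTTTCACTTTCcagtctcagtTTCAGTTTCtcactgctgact
Gbp3, chr3:142559988-142560026, plus strand: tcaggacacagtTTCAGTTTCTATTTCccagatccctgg
Socs1, chr16:10785593-10785631, minus strand: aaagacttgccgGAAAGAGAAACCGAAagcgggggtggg
Cxcl10, chr5:92349028-92349114, minus strand: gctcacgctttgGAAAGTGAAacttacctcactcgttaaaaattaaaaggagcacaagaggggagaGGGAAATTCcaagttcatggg
Il6, chr5:30013058-30013090, plus strand: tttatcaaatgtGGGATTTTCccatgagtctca
Ifit1 held 3 ISRE matches, Gbp3 and Socs1 held 2 each, Cxcl10 held 1 ISRE and 1 NF-kB match, and Il6 held 1 NF-kB match only. Gbp3 has another RefSeq window, with no match, and the windows of Slfn2, Enpp4, Stx3 and Oasl2 held no match to these patterns or to the GAS pattern TTCNNNGAA, which is its own reverse complement. Of the windows searched but not printed, that of Ifit3 held 3 ISRE matches and that of Fas 1 GAS match. Among all 27025 RefSeq symbols with a window, 8.18% held the ISRE pattern, 8.13% the GAS pattern and 3.7% the NF-kB pattern. The ISRE pattern was in 45 of 114 interferon-list genes with a window (39.5%) and in 10 of 11 guanylate-binding and immunity-related GTPases (90.9%). It was in 0 of 12 NF-kB target cytokines and chemokines, 5 of which held the NF-kB pattern (41.7%). A match describes letters in a window and not a bound site.

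No gene passed the test of the genotype difference in the response with limma (Benjamini-Hochberg adjusted p under 0.05, two-sided, 0% of genes tested), and 151 genes had an unadjusted p under 0.05. On the same libraries edgeR called 0 (140 at an unadjusted p under 0.05), and DESeq2 called 7 (83 at an unadjusted p under 0.05). The 7 were Slfn2 and Enpp4, with a smaller response in KO-labelled cells, and Il6, Ifit3, Plscr2, Ccl2 and Ifit2, with a larger one. Each gene's fit left 4 residual degrees of freedom, to which limma adds information on the spread shared across genes, and the absence of calls is no evidence of equal responses. In what follows a response called larger or smaller is so by its fitted value, while "rose" and "fell" are used of a response to IFN-β, and "lower" or "higher" with an adjusted p of a genotype difference, that passed in limma.

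The 12 lists of interferon-pathway genes held 169 symbols, of which 155 were tested, and 35 of these had 3 or fewer reads in at least 1 of the 4 groups. These lists, and the NF-kB lists below, were chosen with earlier results of these data known. Their shares beside those of all genes are therefore descriptions and no independent support. IFN-β raised 133 of the 155 in WT-labelled cells, against 4.68% of all genes tested, and 124 in KO-labelled cells, against 3.37%. It lowered 0 of them in either genotype, against 0.268% and 0.114% of all genes. The difference of log2 responses had a median of 0.22 over the 155 genes and 0.00 over all genes, with 101 values above 0 and 54 below. An unadjusted p under 0.05 was reached by 27 genes with a larger response in KO-labelled cells (0.601% of all genes) and by 7 with a smaller one (0.625%). Responses of same-numbered pairs did not overlap between the genotypes in 36 genes with the larger response in KO-labelled cells (6.98% of all genes) and in 13 with the smaller (8.6%).

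The 155 genes did not move as 1 group. The list median was 1.15 over the 9 IFIT and IFITM genes, 0.60 over the 5 of ISG15 conjugation, 0.31 over the 9 of OAS and RNase L, and 0.56 over the 18 GTPases, whose members ran from −2.87 to 2.98. The order of these 4 depends on the setting: OAS and RNase L exceeded IFIT and IFITM in edgeR and in DESeq2 (1.33 against 1.25 in the latter), and with a pseudocount of 8 it had −0.18 and the GTPases −0.02. Medians closer to 0 were those of the antiviral effectors (0.28 over 37) and the MHC class I and antigen processing genes (0.20 over 20). So were those of the sensors and adaptors (0.14 over 18) and the receptor, JAK and STAT genes (0.04 over 8). The interferon-responsive chemokines and cytokines had a median of 0.01 over 10 genes, with members from −1.21 to 2.39. The 8 Schlafen genes, which include the targeted gene, had a median of −1.47.

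**Figure D1:**
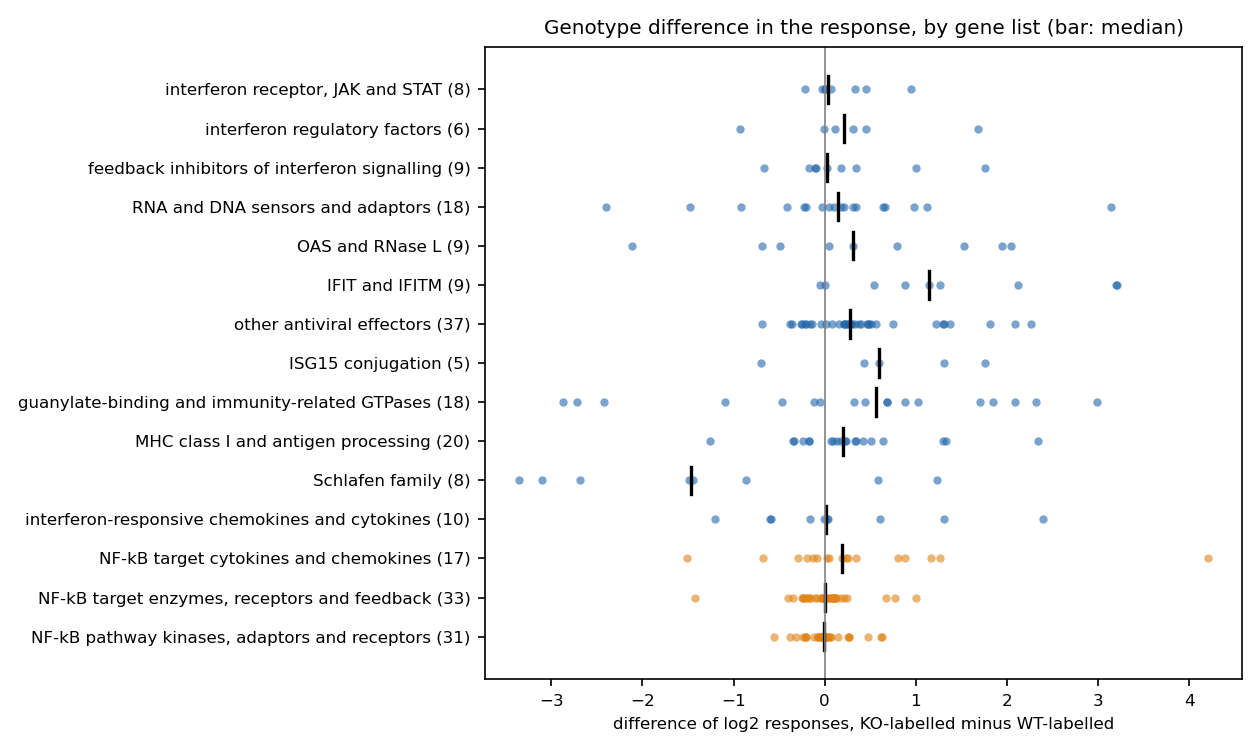
Difference of log2 responses (KO-labelled minus WT-labelled, horizontal axis) of every tested gene in 15 lists, with the number of genes in brackets and the list median as a black bar; blue marks interferon lists and orange NF-kB lists. The medians run from −1.47 in the Schlafen family to 1.15 in the IFIT and IFITM genes, and the GTPases reach far to both sides.

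Sorted by a genotype difference of 1 or more on the log2 scale, 26 of the 155 genes were lower in untreated KO-labelled cells and within 1 of WT-labelled cells after IFN-β, a pattern held by 1.08% of all genes. Another 14 were lower both before and after (5.38% of all genes), and 12 were within 1 before and lower after (1.38%). Slfn2 alone was higher before and lower after. By the test, 40 of the 155 were lower and 12 higher in untreated KO-labelled cells, against 13.1% and 13.5% of all genes, and 31 were lower and 15 higher after IFN-β, against 13.3% and 12.7%. In bulk libraries fewer responding cells and less RNA per cell cannot be told apart.

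**Figure D2:**
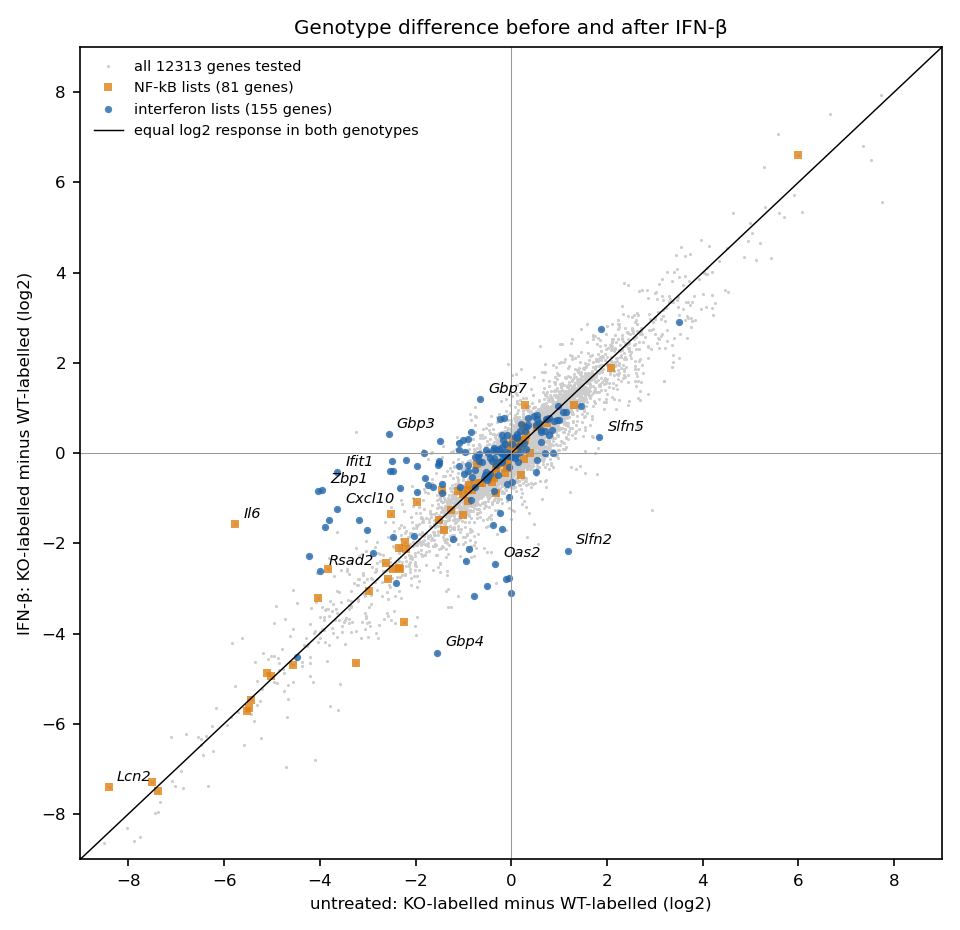
Genotype difference (KO-labelled minus WT-labelled, log2) in untreated cells on the horizontal axis and after IFN-β on the vertical axis, for all genes tested (grey), 155 interferon-list genes (blue) and 81 NF-kB-list genes (orange); the diagonal is an equal log2 response, and vertical distance from it is the difference of responses. Ifit1, Gbp3 and Zbp1 lie left of 0 and near 0 in height, Gbp4, Oas2 and Slfn2 lie well below the diagonal, and most NF-kB-list genes lie along it.

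Several receptor and signalling genes had differences of responses close to 0. Ifnar1 (difference of log2 responses −0.22 ± 0.14 SE, adjusted p = 1 in limma) and Ifnar2 (0.07 ± 0.18, adjusted p = 1) did not pass the test for a response to IFN-β in either genotype. Irf9 differed by 0.33 ± 0.20 and B2m, the light chain of MHC class I, by 0.22 ± 0.15. Irf5, the regulatory factor nearest to equal, differed by −0.01 ± 0.39, and its sign depends on the setting.

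Stat2, the partner of Irf9 in that complex, went further up in KO-labelled cells. It held 103, 255 and 192 normalised reads untreated and 3287, 4157 and 2942 after IFN-β in WT-labelled cells, and 90.2 and 266 untreated and 5283 and 6753 after in KO-labelled cells. The untreated libraries overlapped and the treated ones did not. The responses differed by 0.95 ± 0.40 (unadjusted p = 0.043, adjusted p = 1), and the level after IFN-β by 0.79 (adjusted p = 0.083).

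Socs1, an inhibitor of the receptor's kinases that interferon itself induces, showed the same pattern with less spread. Its WT-labelled libraries had 121, 134 and 169 normalised reads untreated and 608, 611 and 659 after IFN-β. The KO-labelled ones had 129 and 96.1 untreated and 1044 and 955 after. Both KO-labelled libraries exceeded all 3 WT-labelled ones after IFN-β, where Socs1 was higher by 0.76 (adjusted p = 0.012), while untreated levels overlapped. Its response was larger by 1.00 ± 0.22 (unadjusted p = 0.0018, adjusted p = 1), from 0.79 to 1.21 with 1 library left out. Usp18, which removes ISG15 from proteins and damps the receptor, had 20.9, 0.97 and 2.06 normalised reads in the untreated WT-labelled libraries and 1.05 and 0.94 in the KO-labelled ones, so that 1 library decides its basal difference. It reached 5705, 3925 and 5558 in WT-labelled cells and 6838 and 6462 in KO-labelled cells. Socs2 ran the other way, with a difference of −0.67 ± 0.31 (unadjusted p = 0.061).

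Among the regulatory factors, Irf7, which amplifies interferon production, had 58.2, 18.4 and 8.26 normalised reads untreated in WT-labelled cells and 4.19 and 8.48 in KO-labelled cells. After IFN-β it had 3420, 3261 and 3284, and 2925 and 3956. It was lower in untreated KO-labelled cells by the test (−1.96, adjusted p = 0.038) although the libraries overlapped slightly, the treated levels overlapped fully, and the responses differed by 1.68 ± 0.78 (unadjusted p = 0.062). Irf1 differed by 0.46 ± 0.29 and Irf2 by 0.31 ± 0.22.

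A group of antiviral effectors started low in KO-labelled cells and came within 1 log2 unit of WT-labelled cells after IFN-β. Ifit1, which binds foreign RNA without a methylated cap, lies on chromosome 19 (34640871 to 34650009, plus strand, GENCODE M21 on GRCm38). It had 309, 1236 and 881 normalised reads in the untreated WT-labelled libraries and 23.1 and 114 in the KO-labelled ones. After IFN-β these became 26349, 26493 and 26910, and 19381 and 17761. Neither level overlapped between the genotypes: before IFN-β it was −3.64 in KO-labelled relative to WT-labelled cells (adjusted p = 0.0021), and after it −0.43 (adjusted p = 0.59). Its log2 response was 5.25 in WT-labelled and 8.46 in KO-labelled cells, larger by 3.21 ± 0.72 (unadjusted p = 0.0018, adjusted p = 1). In normalised reads, however, Ifit1 gained 25780 in WT-labelled and 18500 in KO-labelled cells, so that the increment was smaller where the fold was larger.

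Ifit3, of the same gene family, had 98.8, 157 and 55.7 normalised reads untreated in WT-labelled cells against 21 and 16 in KO-labelled cells. It reached 23065, 21512 and 20746 against 16825 and 21526. The untreated libraries were apart (adjusted p = 0.00069) and the treated ones overlapped (adjusted p = 0.34). The responses differed by 2.12 ± 0.39 (unadjusted p = 0.00052, adjusted p = 0.82), and DESeq2 gave 2.21 with an adjusted p of 0.00013. Ifit2 followed with 1.27 ± 0.30 (unadjusted p = 0.0024), from 1166, 1606 and 1877 normalised reads untreated in WT-labelled and 558 and 425 in KO-labelled cells.

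Guanylate-binding proteins, GTPases that coat vacuoles holding microbes, supplied values at both ends. Gbp3 had 86.7, 196 and 267 normalised reads untreated in WT-labelled cells and 7.34 and 73.5 in KO-labelled cells, and 4994, 6056 and 5621 against 5561 and 7730 after IFN-β. It was lower before (adjusted p = 0.014), while treated libraries overlapped, and its response was larger by 2.98 ± 0.78 (unadjusted p = 0.0046). Its value depends on which untreated KO-labelled library is used: without library 1 the difference was 1.72, and without library 2 it was 4.24 (adjusted p = 0.037). Gbp2 differed by 2.31 ± 0.66 and the immunity-related GTPase Irgm1 by 0.68 ± 0.18. Gbp7, named after its values were seen, had overlapping untreated levels, and both treated KO-labelled libraries, at 4685 and 6756 normalised reads, exceeded the WT-labelled 2297, 3375 and 3732 (difference of treated levels 1.19, adjusted p = 0.26, and of responses 1.84 ± 0.97, unadjusted p = 0.093).

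Oasl2, of the 2′-5′-oligoadenylate synthetase family, had 98.8, 173 and 93.9 normalised reads untreated in WT-labelled cells and 10.5 and 68.8 in KO-labelled cells. It reached 8268, 8679 and 6808 against 6970 and 8732, with fully overlapping treated levels and a response larger by 2.05 ± 0.64 (unadjusted p = 0.012). Zbp1, a sensor of Z-form nucleic acids that can trigger necroptosis, went from 63.7, 64.9 and 18.6 to 1900, 1701 and 1599 in WT-labelled cells and from 0 and 11.3 to 1027 and 1472 in KO-labelled cells. Its value of 3.15 ± 1.07 became 1.57 with a pseudocount of 8. Isg15, the ubiquitin-like modifier, differed by 1.31 ± 0.59 (unadjusted p = 0.055): its untreated libraries, at 183, 220 and 130 against 45.1 and 184, overlapped, and so did its responses. Leaving out 1 library gave 0.33 to 2.28 for it.

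**Figure D3:**
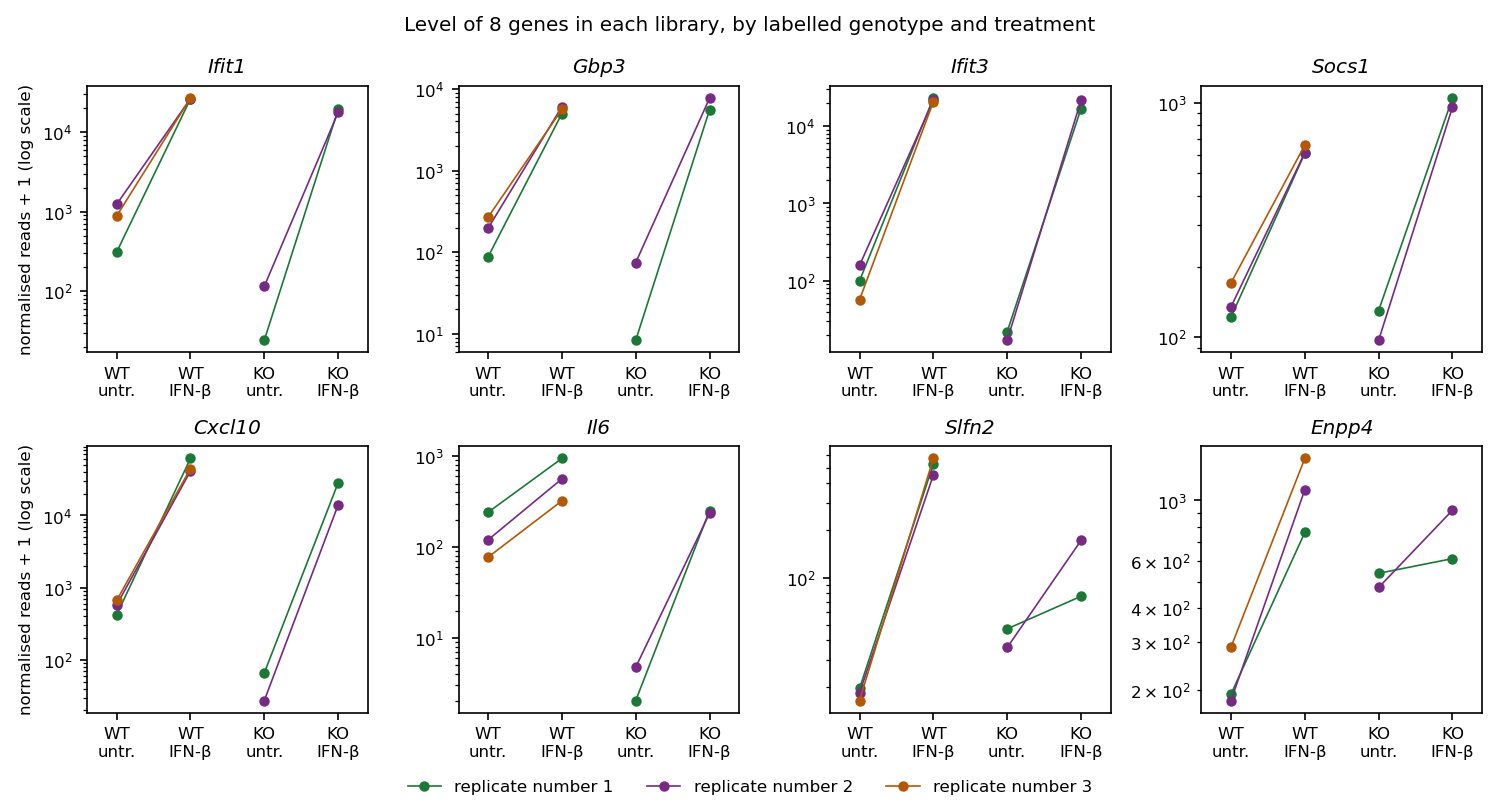
Normalised reads plus 1 (log axis) of 8 genes in each of the 10 libraries, by labelled genotype and treatment; lines join libraries with the same replicate number (green 1, purple 2, orange 3). Ifit1, Gbp3 and Ifit3 start lower and end near the WT-labelled level in KO-labelled cells, Cxcl10 and Il6 start lower and end lower, Socs1 ends higher, Slfn2 ends lower, and Enpp4 starts higher.

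Another group started low and also ended low. Cxcl10, a chemokine for activated T cells (chromosome 5, 92346638 to 92348889, minus strand), had 419, 574 and 664 normalised reads untreated and 61652, 41187 and 44536 after IFN-β in WT-labelled cells. KO-labelled cells had 65.0 and 26.4 untreated and 28228 and 13947 after. The genotypes were apart at both levels, by −3.63 before (adjusted p = 0.00025) and −1.24 after (adjusted p = 0.030). The log2 response was larger by 2.39 ± 0.46 (unadjusted p = 0.00071, adjusted p = 0.82), and the increment was 21040 normalised reads in KO-labelled against 48570 in WT-labelled cells. Cxcl11, the gene of a related ligand, is listed as a polymorphic pseudogene in GENCODE M21. It lay outside this group, with genotype differences of −0.85 before and 0.46 after. Its response differed by 1.31 ± 0.48, and it reached 339 and 892 normalised reads in KO-labelled against 324, 404 and 846 in WT-labelled cells. Ccl5 did not pass the test for a response in either genotype and was lower in KO-labelled cells at both levels (−2.46 and −1.86, adjusted p = 0.00089 and 0.0032).

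Il6, an inflammatory cytokine (chromosome 5, 30013114 to 30019981, plus strand), had the highest difference of responses among all genes tested. In WT-labelled cells it had 240, 119 and 76.4 normalised reads untreated and 944, 562 and 322 after IFN-β. In KO-labelled cells it had 1.05 and 3.77 untreated and 251 and 235 after. Each KO-labelled library was below every WT-labelled one of the same treatment, by −5.77 before (adjusted p = 9.1e-05) and −1.57 after (adjusted p = 0.031). The log2 response was 2.09 in WT-labelled and 6.29 in KO-labelled cells. The difference of 4.20 ± 0.59 had the smallest unadjusted p of all, 7.9e-05 (adjusted p = 0.40), and DESeq2 gave 4.53 with an adjusted p of 1e-05. With only 5 reads in the untreated KO-labelled libraries together, the value depends on the pseudocount and was 4.48 with 0.5 and 2.58 with 8.

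Ccl2, which recruits monocytes, was abundant enough that the pseudocount made little difference. It had 3280, 4297 and 9757 normalised reads untreated and 10381, 10374 and 16221 after IFN-β in WT-labelled cells, and 258 and 318 untreated and 1363 and 1891 after in KO-labelled cells. The genotypes were far apart at both levels (−3.83 and −2.57, adjusted p = 7.8e-06 and 6.5e-05). Its response was larger by 1.26 ± 0.25 (unadjusted p = 0.00081, adjusted p = 0.82; DESeq2 adjusted p = 0.0069), yet the increment was 1339 normalised reads against 6547. Ccl7, another monocyte chemokine, differed by 1.17 ± 0.39.

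Plscr2, a phospholipid scramblase, had 883, 615 and 1004 normalised reads untreated and 1724, 1838 and 2134 after IFN-β in WT-labelled cells, and 89.1 and 27.3 untreated and 581 and 537 after in KO-labelled cells. Its response passed in KO-labelled cells (3.47, adjusted p = 0.00058) and not in WT-labelled cells (1.21, adjusted p = 0.054), with a difference of 2.26 ± 0.46 (unadjusted p = 0.00098, adjusted p = 0.82). The death receptor Fas was lower in KO-labelled cells at both levels (−4.05 and −2.66, adjusted p = 1.7e-05 and 0.00012). Its response passed in KO-labelled cells only (1.43, adjusted p = 0.0093, against 0.04, adjusted p = 0.94), and the difference was 1.39 ± 0.30 (unadjusted p = 0.0014, adjusted p = 1).

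Other genes of this kind had almost no reads in untreated KO-labelled cells. Nlrc5, the transactivator of MHC class I genes, had 0 and 0.94 normalised reads there and 139 and 478 after IFN-β, a ratio of 655 with a 95% counting interval from 116 to 25600, against 692, 812 and 927 in treated WT-labelled cells. Its fitted difference of 2.34 ± 0.44 became 0.19 with a pseudocount of 8. Oasl1 had 2 reads there (ratio 221, interval 58.5 to 1760) and a fitted difference of 1.94 ± 0.48 that became −0.08. Cmpk2, a mitochondrial nucleotide kinase, went from 1.30 ± 0.50 to 0.07 in the same way. Rsad2, which encodes the antiviral enzyme viperin and was named after its values were seen, went from 1.38 ± 0.64 to −0.65. It reached 8355, 8667 and 8539 normalised reads in WT-labelled and 1341 and 1262 in KO-labelled cells, and this lower level after IFN-β (−2.61, adjusted p = 0.0057) does not rest on low counts. Oas1a had 0 reads in untreated KO-labelled cells and rose there at least 128-fold against a floor of 3 reads per library.

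Another set responded less in KO-labelled cells and reached a lower level there. The targeted gene had the lowest fitted difference in the interferon lists, which cannot be told apart from an effect of the targeting on its own reads. Slfn2, a Schlafen-family gene known for keeping resting T cells quiescent (chromosome 11, 83065112 to 83070678, plus strand), had 18.7, 17.4 and 15.5 normalised reads in the untreated WT-labelled libraries and 527, 449 and 573 after IFN-β. The KO-labelled libraries had 46.1 and 34.9 untreated and 75.0 and 171 after. KO-labelled cells were thus higher before (1.18, adjusted p = 0.039) and lower after (−2.16, adjusted p = 0.0035), with no overlap at either level. The response was 4.83 in WT-labelled cells (adjusted p = 2.8e-05) and 1.48 in KO-labelled cells (adjusted p = 0.084). The difference was −3.35 ± 0.47 (unadjusted p = 8.7e-05, adjusted p = 0.40), and DESeq2 gave −3.34 with an adjusted p of 2.4e-06. Of the 8 tested Schlafen genes, 4 were lower by 1 or more on the log2 scale after IFN-β: Slfn2, Slfn4, Slfn1 and Slfn3. By fitted value the response was larger in KO-labelled cells for 2 of the 8, or for 1 with a pseudocount of 8. Slfn4 was at 0 reads in all untreated libraries and reached 194, 33.0 and 50.1 normalised reads in WT-labelled against 14.8 and 6.38 in KO-labelled cells, at least a 29.8-fold and at least a 3.54-fold rise against the floor. Slfn1 reached 24.7, 7 and 13.5 against 0 and 1.82, and Slfn3 13.4, 9 and 15.4 against 1.06 and 1.82, so that neither was detectably above the floor in KO-labelled cells. Slfn5 was not among these 4: it reached 119, 143 and 210 against 80.3 and 227. Its fitted genotype difference was 1.84 in untreated cells, and its fitted difference of responses was −1.49, with overlapping pairs. Slfn5 was named after its values were seen. On chromosome 11, Slfn1, Slfn4 and Slfn3 (83116849 to 83215154) lie near Slfn2, as does Slfn5 (82951349 to 82964840). The part of this position in the values was not tested.

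Gbp4 reached 65.9, 230 and 751 normalised reads in WT-labelled cells, which also differed widely among themselves, and 4.22 and 8.20 in KO-labelled cells, where it had 0 reads untreated and rose at least 2.08-fold. After IFN-β it was −4.43 (adjusted p = 0.0011), and its fitted difference of responses was −2.87 ± 0.75 (unadjusted p = 0.0047), or −2.16 with a pseudocount of 0.5 and −3.53 with 8. Oas2, an enzyme that makes the 2-5A activator of RNase L, reached 625, 378 and 538 against 105 and 98.4 normalised reads, −2.45 after IFN-β (adjusted p = 0.0094) and −2.11 ± 0.67 for the responses (unadjusted p = 0.013). Pydc3, of the interferon-inducible Ifi200 family, reached 587, 469 and 479 against 132 and 237. All 3 had 5 or more normalised reads in at most 1 untreated library, so the genotypes differ in the level reached.

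**Figure D4:**
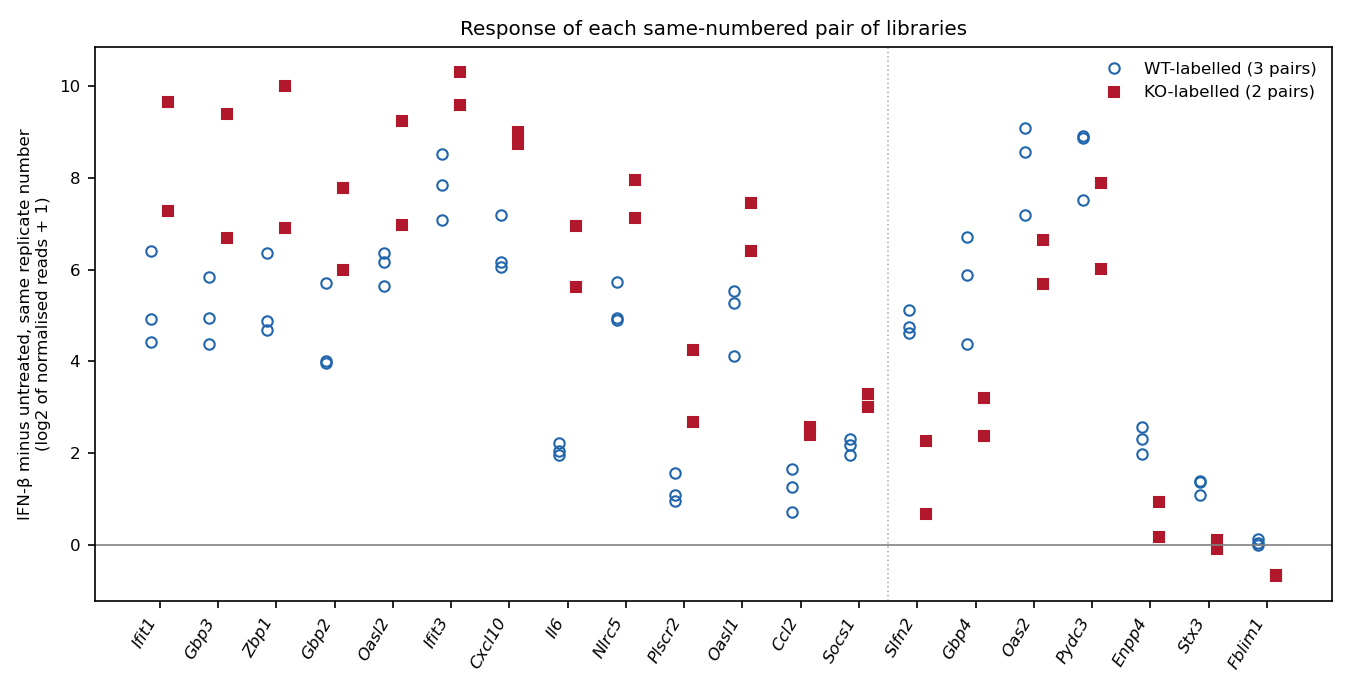
Response of each same-numbered pair of libraries (IFN-β minus untreated, log2 of normalised reads plus 1) for 13 genes with a larger and 7 with a smaller response in KO-labelled cells; open blue circles are the 3 WT-labelled pairs and red squares the 2 KO-labelled pairs. The pairs do not overlap between the genotypes except for Pydc3, and the KO-labelled pairs of Ifit1, Gbp3 and Zbp1 lie far apart from each other.

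Outside the lists, the genes taken for the smallest unadjusted p included several that stand in none of them. Enpp4, a membrane-bound nucleotide-cleaving enzyme, had 192, 182 and 287 normalised reads untreated and 761, 1094 and 1428 after IFN-β in WT-labelled cells, and 538 and 477 untreated and 609 and 919 after in KO-labelled cells. It was higher in untreated KO-labelled cells (1.44, adjusted p = 0.0015), and the treated libraries overlapped. Its response passed in WT-labelled cells (2.29, adjusted p = 5.9e-05) and not in KO-labelled cells (0.56, adjusted p = 0.29). The difference was −1.73 ± 0.26 (unadjusted p = 0.00013, adjusted p = 0.41), from −1.99 to −1.47 with 1 library left out, and DESeq2 gave −1.74 with an adjusted p of 1e-05.

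Stx3, a syntaxin of membrane fusion, had 121, 162 and 141 normalised reads untreated and 314, 426 and 304 after IFN-β in WT-labelled cells. In KO-labelled cells it stayed at 48.2 and 66.0 before and 45.4 and 71.1 after. Its response was 1.29 (adjusted p = 0.00082) against 0.01 (adjusted p = 1), a difference of −1.28 ± 0.23 (unadjusted p = 0.00043). Fblim1, an adaptor at cell-matrix contacts, fell in KO-labelled cells from 368 and 431 to 232 and 275 (−0.65, adjusted p = 0.011) while WT-labelled cells held 1053, 1328 and 1112 before and 1095, 1333 and 1217 after, a difference of −0.72 ± 0.14 (unadjusted p = 0.00075). The complement protease C1s and the endocytic adaptor Dab2 rose in WT-labelled cells (both 0.58, adjusted p = 0.012 and 0.023) and did not pass in KO-labelled cells (0.10 and −0.04), with differences of −0.48 ± 0.16 and −0.63 ± 0.18. In the other direction stood Lpl, lipoprotein lipase. It was lower in untreated KO-labelled cells (−1.02, adjusted p = 0.00089), rose in both genotypes to 1464, 2076 and 2453 against 1462 and 1645 normalised reads, and differed by 0.83 ± 0.17 (unadjusted p = 0.00094). The other 6 of the 12 genes with a smaller response, Tbc1d13, C1qtnf3, Irs2, Narf, Akr1c14 and Bicc1, had differences from −0.47 ± 0.13 to −0.99 ± 0.33 and unadjusted p from 0.0066 to 0.017.

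Of 81 tested genes in the 3 lists of NF-kB targets and pathway genes, 38 were lower in untreated KO-labelled cells (13.1% of all genes) and 40 after IFN-β (13.3%), and 31 were lower by 1 or more at both (5.38%). At each level 4 were higher (13.5% and 12.7% of all genes). Among the 17 target cytokines and chemokines 12 were lower untreated, with a median genotype difference of −2.52 untreated and −2.43 after IFN-β. Among the 33 target enzymes, receptors and feedback genes 22 were lower untreated, with medians of −1.02 and −1.25. Of the 31 pathway kinases, adaptors and receptors 4 were lower and 3 higher untreated, with medians of −0.04 and −0.01. Over the 81 genes the median difference of responses was 0.00, with 3 genes at an unadjusted p under 0.05 and a larger response (Il6, Ccl2 and Ccl7, against 0.601% of all genes) and 0 with a smaller one (0.625%). Nfkbia, the inhibitor that NF-kB itself induces, had 815, 915 and 1524 normalised reads untreated and 798, 759 and 1239 after IFN-β in WT-labelled cells, and 475 and 473 before and 520 and 416 after in KO-labelled cells. It was lower in KO-labelled cells before (−0.89, adjusted p = 0.0023) and after (−0.72, adjusted p = 0.0060), and its responses differed by 0.17 ± 0.18 (unadjusted p = 0.36). Lcn2, an iron-sequestering acute-phase protein, had 689 to 3455 normalised reads in untreated WT-labelled and 3.15 and 14.1 in untreated KO-labelled cells, and did not pass the test for a response in either genotype. Birc2, an inhibitor of apoptosis, was lower at both levels (−2.22 and −1.98, adjusted p = 3.5e-05 and 5.8e-05).

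How large a response was depended on the scale. Of the 155 interferon-list genes, 123 rose in both genotypes, 10 in WT-labelled cells only and 1 in KO-labelled cells only by the threshold. Among the 123, the fold was larger in KO-labelled cells for 86 genes, but for 33 of these the increment in normalised reads was smaller. Of the 37 genes with a smaller fold, 16 had a larger increment. The median increment in KO-labelled cells was 104% of that in WT-labelled cells, with 43.3% for Cxcl10, 71.8% for Ifit1, 100% for Oasl2, 123% for Gbp3, 133% for Isg15, 183% for Socs1 and 1.8% for Gbp4. Increments of same-numbered pairs did not overlap in 37 of the 155 genes with the smaller increment in KO-labelled cells (8.76% of all genes) and in 35 with the larger (8.3%). Among the 59 genes described here, the difference had the opposite sign on this linear scale in 19.

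**Figure D5:**
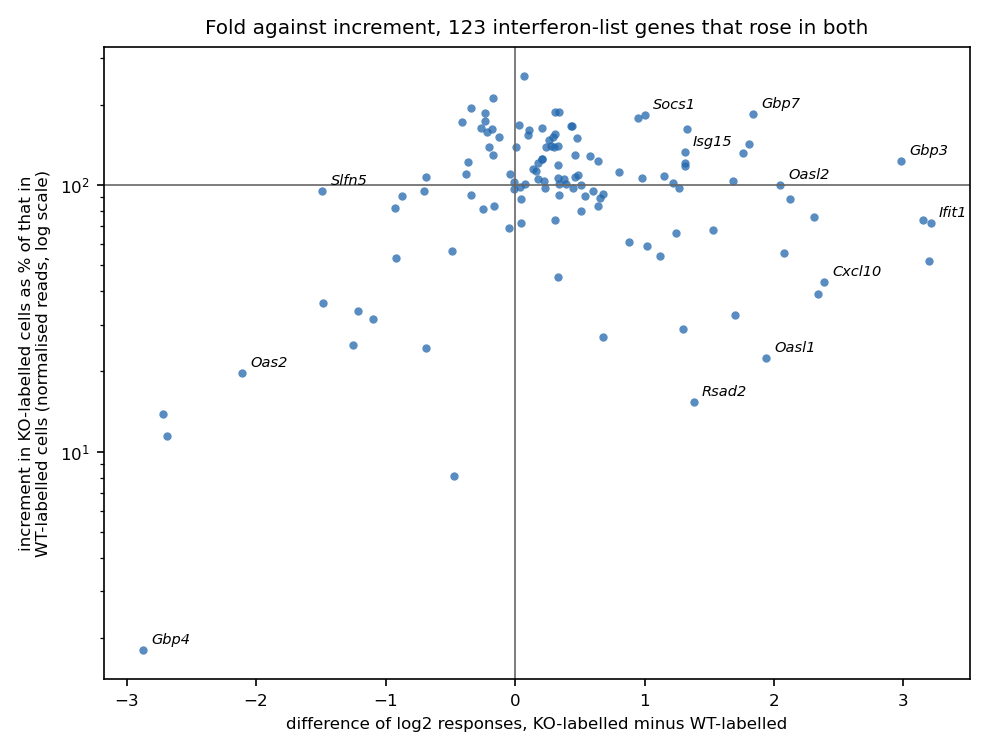
Difference of log2 responses (horizontal axis) against the increment in KO-labelled cells as a percentage of that in WT-labelled cells (vertical log axis) for 123 interferon-list genes that rose in both genotypes. Points at lower right, such as Cxcl10, Oasl1 and Rsad2, have a larger fold and a smaller increment in KO-labelled cells, while Gbp4 and Oas2 are low on both.

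The untreated KO-labelled libraries set much of this picture, and they differed from each other. Over the 155 genes library 2 exceeded library 1 by a median of 0.65 in untreated KO-labelled cells, 0.29 in untreated WT-labelled cells, 0.47 in treated KO-labelled cells and 0.11 in treated WT-labelled cells, against at most 0.02 over all genes. Computed within each number, the median difference of responses was 0.25 for number 1 and 0.22 for number 2. In both numbers the difference was at least 1 in 19 of the 155 genes (12.3%, against 0.528% of all genes) and at most −1 in 11 (7.1%, against 0.504%). Without KO-labelled untreated library 1, however, the list median fell from 0.22 to −0.01 and 77 of the 155 values were above 0. Without KO-labelled untreated library 2 it was 0.46, with 110 above 0. The IFIT and IFITM median stayed between 0.94 and 1.56, the GTPase median between 0.30 and 0.70, and the Schlafen median between −2.07 and −0.98, with any 1 library left out. That of ISG15 conjugation ran from 0.31 to 2.12, the highest value being without KO-labelled untreated library 2. Below 0 without KO-labelled untreated library 1 were the medians of OAS and RNase L (−0.08 to 0.69) and the antiviral effectors (−0.02 to 0.70). That of the MHC class I genes (−0.04 to 0.43) was below 0 in that setting and also, at −0.01, without WT-labelled IFN-β library 2. The medians of the sensors (−0.23 to 0.20) and the chemokines and cytokines (−0.20 to 0.22) took both signs. The receptor, JAK and STAT median ran from 0.01 to 0.13.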

How the data were processed

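Libraries were directional and prepared from total RNA, per the labels. Per the submitters' processing notes, cutadapt 1.13, STAR 2.5.2a, HTSeq and DESeq2 were used with the mm10 build, and the annotation and strand setting are not given in the sources used here. Each deposited value is a signal: a gene's read count over the size factor of its library. Whole reads, recovered within 0.001 reads for 100% of values in each library, went into count tests, none of which is the main result.

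limma-trend (limma 3.58.1, R 4.3.3) was fitted to log2 of the normalised read count plus 1, with 4 group means and the replicate number as a block, over 12313 genes that passed filterByExpr of edgeR 4.0.16 (minimum count 10). All p-values are two-sided and adjusted over these genes by Benjamini-Hochberg. The log2 scale with a pseudocount understates changes of low genes. A group at 0 reads is given as a bound against a floor of 3 reads per library (2.73 to 3.29 normalised reads), and 1 to 3 reads as a ratio with its 95% interval, from reads summed over the group. Both cover counting error only. Across genes, deviations of same-numbered libraries from their group means correlated at Pearson's r from 0.48 to 0.871, so same-numbered libraries deviated together. For different numbers r was at most 0.318. Deviations within a group sum to 0, which ties these values to the same-number ones, so the contrast is partly built in.

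Genes described are 6 chosen by name, the 12 with the smallest unadjusted p in each direction among plain names with a mean log2 level of at least 5, up to 5 per list and the member nearest 0 in each list, 100 in all, of which those not printed are in the list counts. Members and lists were chosen with earlier results of these data known. Of list symbols, 8 matched through an older symbol. DESeq2 1.42.0, edgeR, other pseudocounts, filters and scalings, and leaving out each library were tried as alternatives.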

Additional observations from a re-analysis of the deposited data

How the results depend on the processing

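With 12313 genes tested in most settings, the genotype difference in the response had 0 calls in limma under every pseudocount, filter and scaling tried and in edgeR, and 7 in DESeq2. With 1 library left out it had 0 to 4: Slfn2 without KO-labelled IFN-β library 2, Plscr2 without KO-labelled untreated library 1, Cxcl10 without WT-labelled untreated library 1, and Il6, Oasl2, Gbp3 and Ifih1 (named after its values were seen, range −0.26 to 2.23) without KO-labelled untreated library 2. Without the replicate block 0 genes differed in response (36 at an unadjusted p under 0.05), and the calls were 272 instead of 609 for the WT-labelled response, 227 instead of 429 for the KO-labelled response, 767 instead of 3275 for the untreated genotype difference and 807 instead of 3203 for that after IFN-β. With numbers 1 and 2 only, the WT-labelled response had 367 calls. With 1 library left out these counts ran from 363 to 587, 267 to 551, 1243 to 3276 and 1211 to 4469 in the same order. Among the genes described, a pseudocount of 8 turned the sign of Oasl1 (−0.08) and Rsad2 (−0.65). The sign of Irf5 turned with edgeR (0.07), DESeq2 (0.06) and numbers 1 and 2 only (0.18), and ran from −0.48 to 0.46 with 1 library left out. Slfn3 turned with edgeR (0.20). Leaving out 1 library gave −0.07 to 0.21 for Ifnar2 and −0.01 to 0.35 for Nfkbia. The cause of these changes was not tested. Depth limits the genes with 3 or fewer reads in a group, for which the level reached is firmer than the fold.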
